A study of Mus musculus with 6 samples.

Results

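DNA mismatch repair corrects base mispairs and small insertion or deletion loops that replication leaves behind. 6 of its genes were examined by name, Msh3, Msh6, Mlh3, Pms1, Pms2 and Exo1, and all 6 were among the 12656 genes measured. The cells were 4T1, a carcinoma line from the mammary gland of a mouse, and their RNA was sequenced in bulk. Of its 6 libraries of polyadenylated RNA, 3 came from cells given the solvent DMSO, for a time the sources used here do not give. The other 3 came from cells given LP-184, an alkylating DNA-damaging prodrug, for 48 h. Both groups are the same cell line with no labelled genetic change, and the labels do not say whether replicates were separate cultures. The p-values thus rest on the differences among replicate libraries, and these may be technical only.

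In mismatch repair, a heterodimer of MutS homologues finds the lesion. Msh6 encodes the subunit for base mispairs and short loops, and Msh3 the alternative subunit for larger loops. A heterodimer of MutL homologues then follows, in which Pms2, Pms1 or Mlh3 can fill the second place, and the Pms2 and Mlh3 products cut the new strand. Exo1 encodes the exonuclease that removes the stretch with the error, after which polymerase delta, the clamp PCNA, its loader RFC, the single-strand binder RPA and DNA ligase I rebuild the strand. The pathway also takes part in signalling from some alkylated bases. The partner proteins that the MutS and MutL subunits share were not analysed here.

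The start regions of Pms1 and Pms2 are shown because results below compare genes that begin there, and that of Msh6 because it is the most abundant and most raised of the 6 genes. In the GRCm38 annotation Pms1 and Ormdl1 start 77 bases apart on opposite strands, and so do Pms2 and Aimp2 at 117 bases. RefSeq promoter windows of GRCm38.p6 (250 bases before to 50 after a start) were matched for 5 of the 6 genes. Capitals mark a CCAAT box (CCAAT) or a GC box (GGGCGG), each read on both strands, and neighbouring GC boxes in Msh6 overlap. An E2F site (TTTGGCGC or TTTCCCGC) was sought likewise, and none lies in the runs printed here. All runs are 5′ to 3′ on the strand of the mismatch repair gene.
Between Pms1 and Ormdl1, chr1:53297019-53297094, reverse strand: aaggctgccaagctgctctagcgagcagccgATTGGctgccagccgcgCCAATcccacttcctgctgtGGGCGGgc
Between Aimp2 and Pms2, chr5:143909848-143909963, forward strand: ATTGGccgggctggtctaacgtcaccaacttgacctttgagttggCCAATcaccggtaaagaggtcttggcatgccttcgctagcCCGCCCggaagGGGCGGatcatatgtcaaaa
Upstream of Msh6, chr17:87974800-87975049, forward strand: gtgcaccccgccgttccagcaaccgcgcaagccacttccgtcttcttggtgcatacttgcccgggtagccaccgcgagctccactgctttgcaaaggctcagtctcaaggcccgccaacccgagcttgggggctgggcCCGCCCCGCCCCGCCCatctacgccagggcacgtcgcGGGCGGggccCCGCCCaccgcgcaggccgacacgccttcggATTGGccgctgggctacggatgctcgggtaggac
A CCAAT box was found in the windows of Mlh3, Msh6, Pms1 and Pms2, against 37.4% of all 32851 windows of this length. A GC box was found in those of Msh3, Msh6, Pms1 and Pms2, against 35.7% of all windows. An E2F site of either form was found in Msh3 and, 15 bases after the start, in Msh6, against 1.56% of windows. The CHR element (TTTGAA), held by 17.9% of windows, was found in 0 of the 5. These matches describe the letters of the windows and show no binding.

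Most genes differed between the groups, so the mismatch repair genes are read against that background. In a limma fit (adjusted p under 0.05, Benjamini-Hochberg), 78.3% of 11931 genes tested were called, with 38.3% higher and 40.0% lower with LP-184. For 79.1% of genes the values of the groups did not overlap, and 12.6% were called lower by 2-fold or more. The libraries held 18864368 to 22471753 reads over the genes of the table. All 9 mammary epithelial and carcinoma markers were present, with a summed level of 5573 to 5610 CPM (a gene's reads scaled to library size) in DMSO and 4431 to 4468 CPM in LP-184. Of these 9, 6 were called higher and 3 lower, and the lower sum came from the keratin genes Krt7 (1926 to 705 CPM), Krt8 and Krt18. Of the fibroblast markers, 1 of 6 (Pdgfra) was among the genes analysed, at 6.37 to 7.62 CPM and 8.12 to 10.3 CPM, and of the endothelial markers 0 of 4. Of the white blood cell markers 3 of 6 were (Csf1r, Lyz2 and Cd79a), with sums of 3.10 to 4.47 CPM in DMSO and 31.4 to 37.8 CPM in LP-184. Csf1r made up most of the latter, at a mean of 34.5 CPM. Lyz2 went the other way, with 30, 42 and 24 reads in the DMSO libraries and 0 in each LP-184 library, and the general white blood cell marker Ptprc was not analysed here. The part of these genes in the results below was not tested.

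All 6 mismatch repair genes passed the filter on low values (at least 3 libraries with a deposited log2 CPM not below 0), and all 6 passed the test. Msh6 and Exo1 were higher and Msh3, Mlh3, Pms1 and Pms2 lower, beside the background of 78.3% called among all genes. The sizes differed widely. Pms1 was 3.82-fold and Msh3 2.87-fold lower, whereas Pms2 was 11.8% lower, Exo1 19.0% higher and Msh6 44.7% higher. The median log2 fold change of the 6 genes was -0.42, against -0.01 over all genes tested. These values are reads relative to a library size, so less RNA per cell and fewer cells of a kind cannot be told apart. That size was 0.984 to 0.994 of the reads over the genes of the table in DMSO. In LP-184 it was 1.007 to 1.016 of them, so the values are not plain shares of reads.

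**Figure D1:**
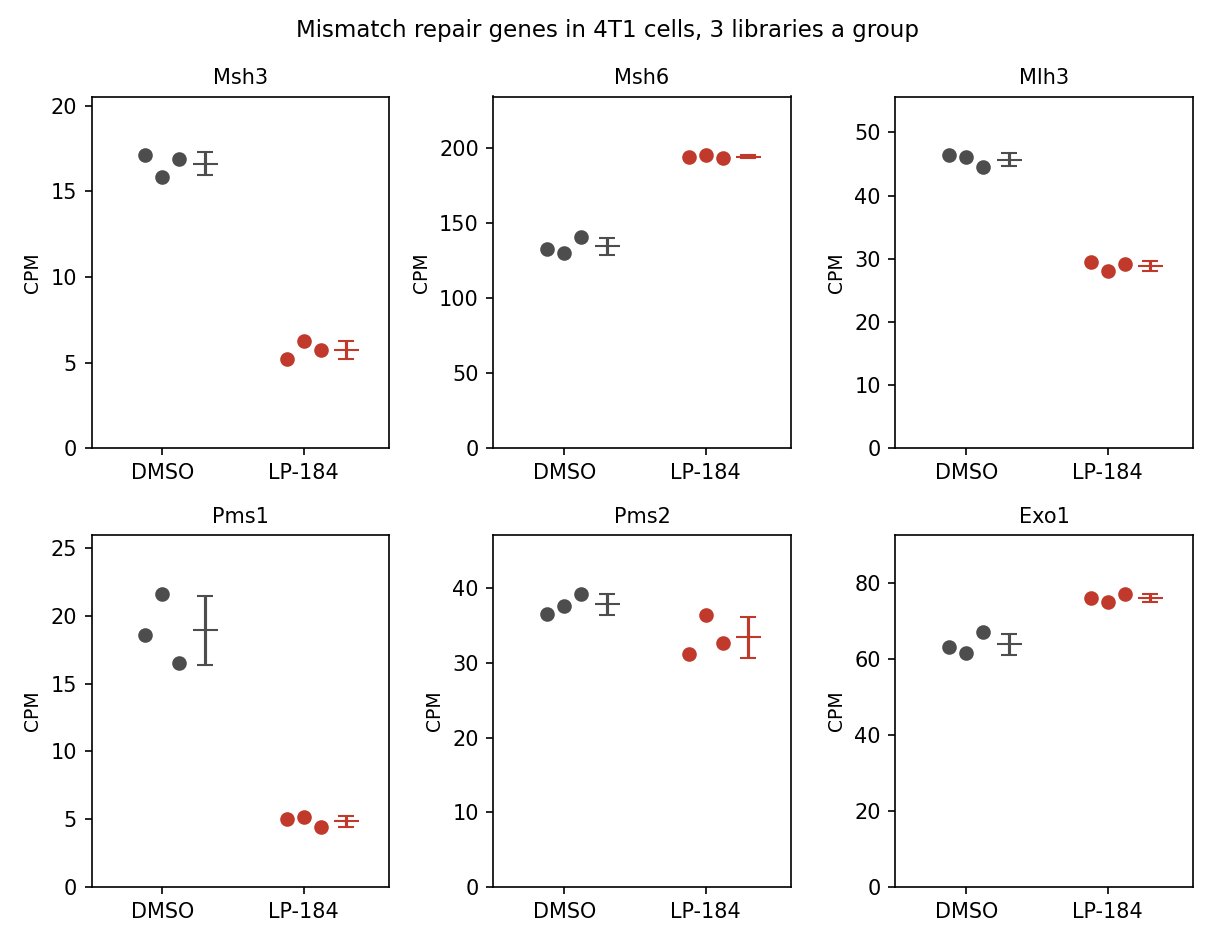
Level of each mismatch repair gene in CPM (linear axis from 0) in the 3 DMSO and 3 LP-184 libraries, with points for libraries and bars for the mean and SD. The groups do not overlap for any of the 6 genes, beside 79.1% of all genes tested without overlap. The gap is narrowest for Pms2 (36.5 CPM at the top of LP-184, 36.6 CPM at the bottom of DMSO).

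Among the MutS genes, the alternative subunits moved in opposite directions. Msh6 (ENSMUSG00000005370.4, chromosome 17, 87975062 to 87990892) was at 133, 130 and 141 CPM in the DMSO libraries and 194, 195 and 194 CPM in the LP-184 libraries. Every LP-184 library lay above every DMSO library, and the LP-184 libraries lay close together. The log2 fold change was 0.53 ± 0.03 (SE, n = 3 each, limma adjusted p = 7.1e-17), from 7896 reads in DMSO and 12214 reads in LP-184. Subtracting the average fold change of genes of like genomic span (span correction, a loess curve) took Msh6 to 0.23.

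Msh3 (ENSMUSG00000014850.15, chromosome 13, 92211872 to 92355003) was at 17.1, 15.8 and 16.9 CPM in DMSO and at 5.21, 6.28 and 5.71 CPM in LP-184. No LP-184 library came near the DMSO range. The log2 fold change was -1.52 ± 0.12 (SE, n = 3 each, limma adjusted p = 8.9e-14), from 974 and 359 reads. After span correction it was -0.24 ± 0.10 (limma adjusted p = 0.031), still lower but far smaller. The strand setting of the counting was not given in the sources used here, so for any of the 6 genes reads shared with an overlapping gene cannot be assigned with certainty.

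The 3 MutL genes were all lower, to very different degrees. Pms1 (ENSMUSG00000026098.13, chromosome 1, 53189187 to 53297018), whose product forms a MutL dimer of unsettled function, was at 18.6, 21.6 and 16.5 CPM in DMSO and at 4.99, 5.17 and 4.40 CPM in LP-184. On the log2 scale the DMSO libraries spread more than for the other 5 genes, yet the groups stayed far apart. Its log2 fold change was -1.94 ± 0.13 (SE, n = 3 each, limma adjusted p = 5e-16), from 1120 and 306 reads, and -1.01 after span correction.

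Mlh3 (ENSMUSG00000021245.15, chromosome 12, 85234520 to 85270599), which also serves crossover formation in meiosis, was at 46.4, 46.1 and 44.5 CPM in DMSO and 29.5, 28.0 and 29.1 CPM in LP-184. The groups were well separated and each was tight. The log2 fold change was -0.66 ± 0.06 (SE, n = 3 each, limma adjusted p = 2.8e-12), and it was -0.65 after span correction. Among these 6 genes, Mlh3 and Exo1 changed least under it.

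Pms2 (ENSMUSG00000079109.11, chromosome 5, 143909964 to 143933968), which supplies the main nicking activity of the pathway, was at 36.6, 37.7 and 39.3 CPM in DMSO and 31.1, 36.5 and 32.7 CPM in LP-184. LP-184 replicate 2 lay just under the lowest DMSO library. The log2 fold change was -0.18 ± 0.06 (SE, n = 3 each, limma adjusted p = 0.011). The call was lost when DMSO replicate 3 was left out (-0.15, adjusted p = 0.0541), and likewise for LP-184 replicate 1 (-0.13, adjusted p = 0.0872). Median centring also ended it, at -0.094 (adjusted p = 0.178), as did quantile normalization, at -0.11 (adjusted p = 0.139). It was also lost without the variance trend (adjusted p = 0.0546), and over 18 alternatives the adjusted p ran from 0.00013 to 0.178. After span correction Pms2 was at -0.33 (limma adjusted p = 0.00013). The annotation places the protein-coding Rsph10b (934 bases) and a predicted protein-coding gene (5794 bases), both on its own strand, over parts of Pms2. An antisense gene overlaps it too, and none of these was analysed here, so its reads are uncertain there. For the overlaps on its own strand, knowing the strand setting would not remove this limit.

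Exo1 (ENSMUSG00000039748.11, chromosome 1, 175880581 to 175913489) was at 63.1, 61.6 and 66.9 CPM in DMSO and 76.0, 74.8 and 77.1 CPM in LP-184. All LP-184 libraries were above all DMSO libraries. The log2 fold change was 0.25 ± 0.04 (SE, n = 3 each, limma adjusted p = 4.7e-06), and 0.23 after span correction. In the authors' deposited table the log2 fold changes of the 6 genes ran from -1.96 for Pms1 to 0.53 for Msh6, and the highest adjusted p was 0.0087, for Pms2.

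Scaled to annotated exon length and library size (RPKM), Msh6 was the most abundant of the 6 in DMSO at 31.0 ± 1.26 (SD, n = 3). Exo1 followed at 7.58 ± 0.327, Mlh3 at 6.05 ± 0.133, Pms2 at 4.66 ± 0.167, Pms1 at 2.51 ± 0.339 and Msh3 at 1.48 ± 0.0595 RPKM. No neighbours in that order overlapped in their library values. With LP-184 the order was Msh6 at 44.8 ± 0.206, Exo1 at 9.02 ± 0.134, Pms2 at 4.12 ± 0.336, Mlh3 at 3.83 ± 0.103, Pms1 at 0.644 ± 0.0536 and Msh3 at 0.509 ± 0.0472 RPKM. Pms2 and Mlh3 then overlapped, with ranges of 3.84 to 4.49 and 3.71 to 3.91 RPKM. Exon length is the union of all annotated transcripts, which understates the level of genes with long minor forms.

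Because Msh6 and Msh3 compete for 1 partner, as do Pms2, Pms1 and Mlh3, their balance within each library was compared. This difference of log2 CPM does not depend on the scaling between libraries. Msh6 exceeded Msh3 by 2.95, 3.03 and 3.05 in the DMSO libraries and by 5.19, 4.94 and 5.06 in the LP-184 libraries. The balance thus moved 4.15-fold toward Msh6, a log2 change of 2.05 ± 0.08 (SE). After span correction the fold changes of the genes lay far closer together, at 0.23 for Msh6 and -0.24 for Msh3. Pms2 exceeded Pms1 by 0.97, 0.80 and 1.24 in DMSO and by 2.62, 2.79 and 2.87 in LP-184, a change of 1.75 ± 0.15. Pms2 minus Mlh3 was -0.34, -0.29 and -0.18 in DMSO and 0.08, 0.38 and 0.17 in LP-184, a change of 0.48 ± 0.10. CPM is not scaled to gene length, so the sign of this difference does not tell which gene was at the higher level. In RPKM the ranges of Pms2 and Mlh3 overlapped with LP-184. Mlh3 gained on Pms1 by 1.28 ± 0.13. The MutL genes also lay closer together after span correction, with Pms2 at -0.33, Mlh3 at -0.65 and Pms1 at -1.01. These balances are of RNA, not protein. For each of the 4 pairs the exact permutation test gave p = 0.1 (two-sided, 0.1 after Benjamini-Hochberg adjustment over the 4), the smallest that 3 against 3 allows, so none can pass 0.05.

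**Figure D2:**
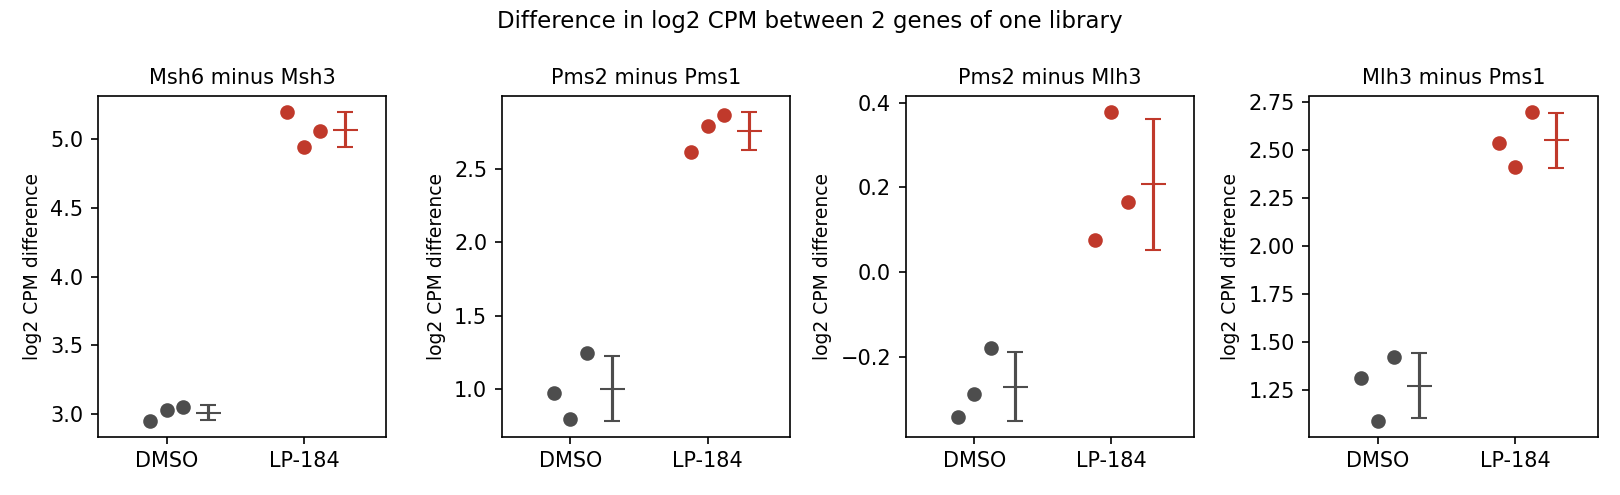
Difference in log2 CPM between 2 mismatch repair genes within each library, for 4 pairs, with points for libraries and bars for the mean and SD (the axes do not start at 0). The LP-184 libraries lie above the DMSO libraries in each pair. Pms2 minus Mlh3 changes sign in CPM, which is not scaled to gene length.

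Over all genes, long genes were lower with LP-184, and the mismatch repair genes differ in genomic span, which played no part in choosing them. The span was 143 kb for Msh3, 108 kb for Pms1, 36.1 kb for Mlh3, 32.9 kb for Exo1, 24.0 kb for Pms2 and 15.8 kb for Msh6. Msh3 and Pms1, with the largest falls, were the only ones of the 6 over 100 kb. Among the 1314 tested genes of 100 kb or more, 90.5% were called lower and the median log2 fold change was -1.41. Msh3 lay near the middle of that class, with 45.9% of its genes at lower values, and Pms1 had 32.1% at lower values. Among the 3105 genes of 20 to 50 kb, 36.0% were called lower and 40.9% higher, with a median of 0.03. Mlh3 stood toward the lower end of that class (11.2% of its genes had lower values), Pms2 at 34.1% and Exo1 at 66.1%. In the 5433 genes under 20 kb, 53.1% were called higher and the median was 0.25, and 67.5% had lower values than Msh6. Beyond the values after span correction, the part of span in the change of any 1 of these genes was not tested.

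**Figure D3:**
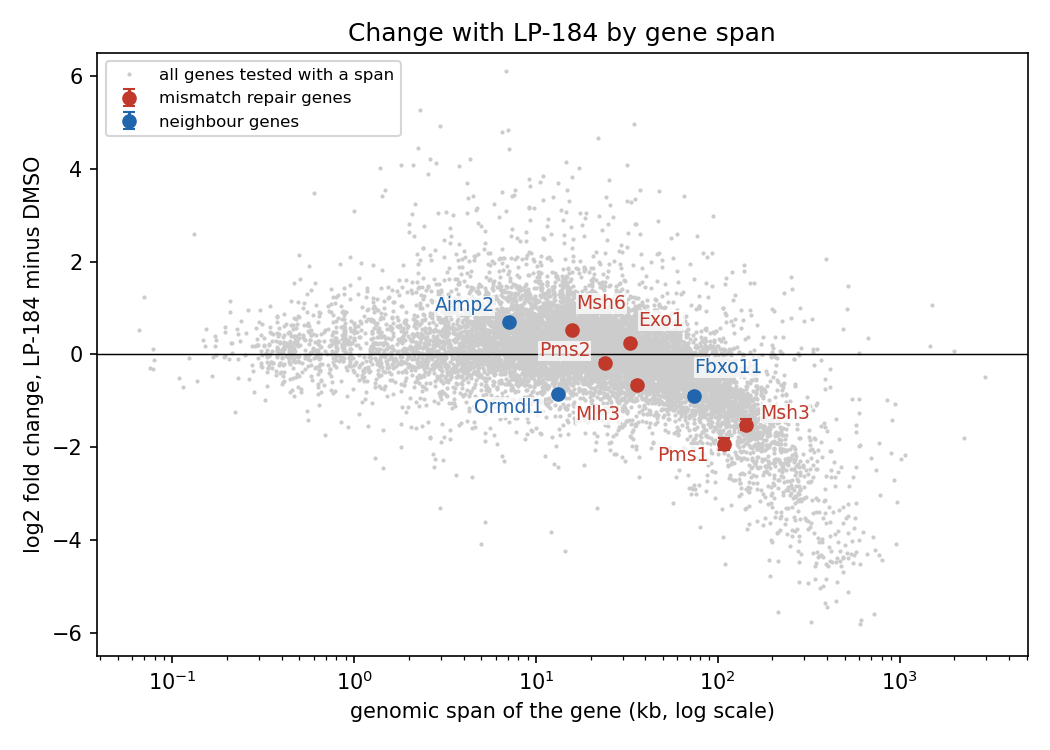
Log2 fold change (LP-184 minus DMSO) against genomic span in kb on a log axis, for all tested genes with an annotated span (grey), the mismatch repair genes (red) and their neighbours (blue), with bars for the SE. Msh3 and Pms1, of 143 and 108 kb, lie in the descending part of the cloud, whose genes of 100 kb or more have a median of -1.41.

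Genes that begin at the same place allow a closer look, since they share the sequences around their starts. Ormdl1, a regulator of sphingolipid synthesis of 13.2 kb beside Pms1, fell from 58.9, 57.1 and 58.0 CPM to 32.9, 31.7 and 31.4 CPM. Its log2 fold change was -0.86 ± 0.05 (SE, n = 3 each, limma adjusted p = 2.2e-16), so both genes of this pair were lower, and Pms1, at -1.94, was the lower one. After span correction Ormdl1 was at -1.18 ± 0.06 and Pms1 at -1.01 ± 0.11 (SE), too close for these errors to give an order. Aimp2, a scaffold of the aminoacyl-tRNA synthetase complex of 7.14 kb beside Pms2, rose from 108, 106 and 107 CPM to 172, 173 and 177 CPM. Its log2 fold change was 0.70 ± 0.03 (limma adjusted p = 3.3e-20), or 0.32 after span correction, opposite in direction to Pms2. In both pairs the mismatch repair gene was the longer one. It had the lower value in both before span correction, but afterwards clearly so only in the pair of Pms2 and Aimp2.

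Among all genes, pairs with opposite calls occurred but were less frequent than pairs with like calls. Of 759 pairs of tested protein-coding genes with opposite starts within 1000 bases, 23.3% had calls in opposite directions and 41.9% in the same direction. The median difference within a pair was 0.56 log2 units (quartiles 0.30 and 1.04). The difference of 1.08 for Pms1 and Ormdl1 lay above the upper quartile, and that of 0.88 for Pms2 and Aimp2 below it. At its far end Msh6 overlaps Fbxo11, a substrate receptor of a ubiquitin ligase that spans 74.4 kb, by 34 bases. Fbxo11 fell by 0.89 ± 0.06 on the log2 scale (-0.34 after span correction) while Msh6 rose.

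**Figure D4:**
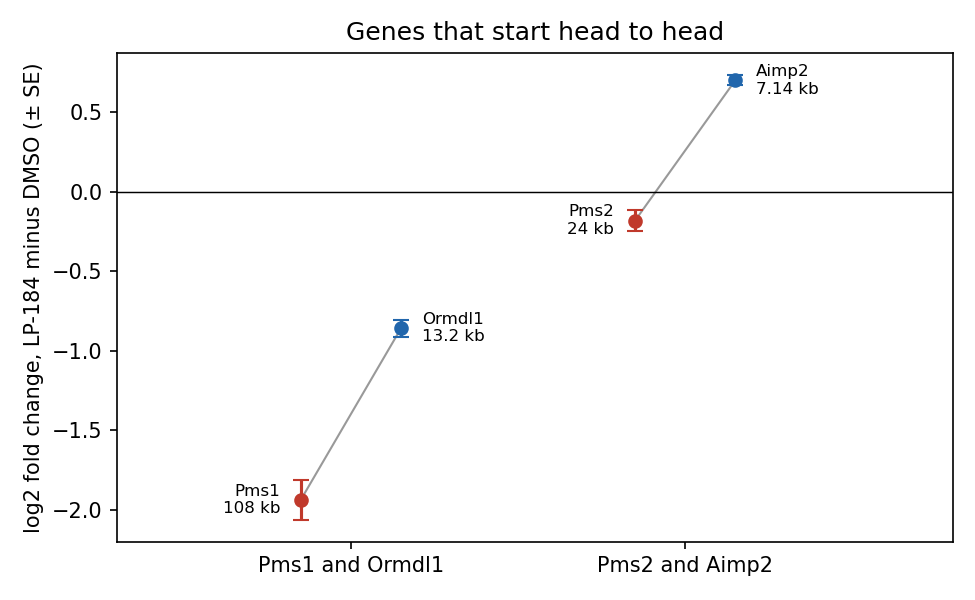
Log2 fold change (LP-184 minus DMSO, bars for the SE) of Pms1 and Pms2 (red) and of the genes that start head to head with them (blue), with each gene's span in kb. Each mismatch repair gene lies below its partner, by 1.08 and 0.88 log2 units. After span correction Pms1 (-1.01 ± 0.11) and Ormdl1 (-1.18 ± 0.06) were too close to be ordered.

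The steps after lesion recognition were covered by a list of 14 factors, all tested. Of these, 7 were higher, 4 lower and 3 not called, with a median log2 fold change of 0.08. Over all genes tested, 38.3% were higher and 40.0% lower. Rpa2, the middle subunit of the single-strand binder RPA, rose by 0.89 ± 0.04 (SE), and Pold1, the catalytic subunit of polymerase delta, by 0.57 ± 0.04. Pold3, an accessory subunit of the same polymerase, fell by 1.10 ± 0.07, to 21.8 CPM from 46.5 CPM. The clamp gene Pcna was at -0.03 (limma adjusted p = 0.14), and it was called lower after span correction, at -0.34. After span correction 6 of the 14 were called higher and 8 lower, so the balance of this list rests on that choice. Among all genes with a span, 4045 were then called higher, against 4574 of all 11931 genes tested before. Genes with a span were 5433 under 20 kb and 3105 of 20 to 50 kb. A further 1610 were of 50 to 100 kb and 1314 of 100 kb or more. That set is smaller than the 11931 tested before, so the 2 counts have unlike totals. Over the 18 alternatives, span correction among them, 4222 to 4844 of all genes were called lower. The 6 mismatch repair genes had higher and lower members, like this list, and no test of a difference between them was made.

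Of 7 further partners of mismatch repair proteins, 1 was higher, 4 lower and 2 not called, with a median of -0.55. The shares over all genes were 38.3% higher and 40.0% lower. Mcm9, a helicase that binds mismatch repair proteins, fell by 1.15 ± 0.12, Smarcad1, a chromatin remodeller, by 1.03 ± 0.05, and Mutyh, the glycosylase that removes adenine opposite oxidised guanine, by 1.12 ± 0.18. Mcm9 spans 94.1 kb and was at -0.38 after span correction, Smarcad1 was at -0.49, and Mutyh, of 11.7 kb, at -1.44. The number called higher was 2 with median centring and 3 after span correction. Msh5, a MutS homologue of meiosis, was at 4.09 CPM in DMSO and 2.73 CPM in LP-184 (log2 fold change -0.57 ± 0.20, limma adjusted p = 0.0097). Its call was lost with quantile normalization (-0.31) and without LP-184 replicate 1 (-0.44), and its relative Msh4 was not analysed here.

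Exo1 belongs to a nuclease family with 3 other members tested. Fen1, the flap endonuclease of lagging strand synthesis, rose by 0.84 ± 0.12 (SE) and Ercc5, the 3′ nuclease of nucleotide excision repair, by 0.75 ± 0.12. Gen1, a resolvase of Holliday junctions, was at 0.11 ± 0.05 (limma adjusted p = 0.05), a value that passed the threshold in 4 of 18 alternatives. Of the enzymes that reverse base alkylation directly, Alkbh2 rose by 0.37 ± 0.11, a call lost after span correction (0.06), and Alkbh3 fell by 0.69 ± 0.10. Mgmt was not analysed here.

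Mismatch repair can pass signals to the checkpoint kinases, and among 6 of these and their partners 2 were higher, 3 lower and 1 not called. Among all genes 78.3% were called, 38.3% higher and 40.0% lower. Atr was the lowest, at -1.87 ± 0.08 (SE), or -1.09 after span correction, while its partner Atrip rose by 0.65 ± 0.08 (0.35 after span correction) and its activator Topbp1 by 0.09 ± 0.03. The call of Topbp1 was lost without the variance trend, which left 1 gene of the list higher. Atm was at -0.30 ± 0.07 and, after span correction, at 0.51. Chek2 was at -0.12 ± 0.06 (limma adjusted p = 0.046), a call lost in 10 of 18 alternatives, among them those without DMSO replicate 1 or 2 and without LP-184 replicate 1 or 3, where it was -0.13 to -0.09. Chek1 was not called (-0.02 ± 0.03, limma adjusted p = 0.53), but after span correction it was called lower, at -0.28.

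Several mismatch repair genes are expressed most in dividing cells, so S phase genes were described beside them. Of 17, 11 were higher, 5 lower and 1 not called, with a median of 0.26, beside 38.3% higher and 40.0% lower among all genes. After span correction 7 were higher, 7 lower and 3 not called. Among all genes with a span, a smaller set than the 11931 tested, 4045 were then higher. Cdt1, which licenses origins, rose by 1.61 ± 0.03 (SE), Cdc6, of the same step, by 0.82 ± 0.04, and Mcm2, of the replicative helicase, by 0.73 ± 0.03. The 5 lower genes were Tk1 (-0.47), Ccne2 (-0.31), Rrm2 (-0.30), Mcm6 (-0.20) and Tyms (-0.19). After span correction Cdt1 was at 1.25, Cdc6 at 0.52 and Mcm2 at 0.42. The S phase list thus went both ways, and its part in the higher values of Msh6 and Exo1 was not tested.

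**Figure D5:**
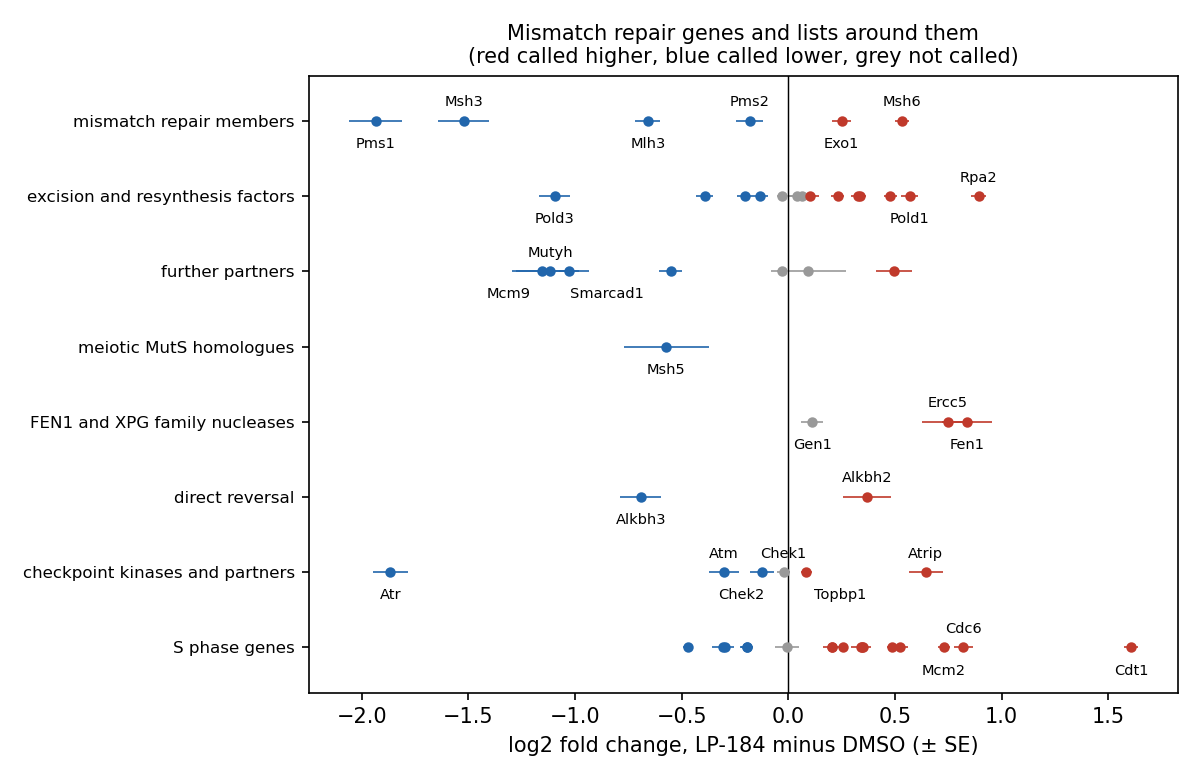
Log2 fold change (LP-184 minus DMSO, bars for the SE) of each tested gene of the mismatch repair set and of 7 lists around it, with called higher in red, called lower in blue and not called in grey. Genes on both sides of 0 appear among the mismatch repair genes and in 5 of the 7 lists, and Pms1 is the lowest point shown at -1.94.

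The genes with the most similar values over the 6 libraries were sought among all tested genes, by the Euclidean distance between log2 CPM centred on each gene's mean. Nearest to Msh6 were Mybl2, a transcription factor of the cell cycle (0.022 log2 units), and Rbm5 (0.028). Nearest to Exo1 were Mms19, a factor of iron-sulfur protein assembly (0.023), and Tssc4 (0.046). For Mlh3 they were Efemp2 (0.051) and the kinase gene Src (0.055), and for Pms2 the histone gene H4c9 (0.071), which has near-identical copies, and Prkag1 (0.071). For Msh3 they were Kif13a (0.113), a kinesin gene of 181 kb, and Zfp9 (0.140), of 17.4 kb, and for Pms1 they were Ulk4 (0.194) and Kdm4c (0.210), of 322 and 163 kb. With 6 libraries in 2 groups, a small distance is mainly a fold change of like size.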

How the data were processed

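The authors deposited log2 CPM for 12656 genes in 6 libraries, with a prior count added. Each control column was assigned to the DMSO library that carries its number. Per the submitters' processing notes, the tools were STAR 2.7, Subread 2.0, featureCounts, fastp and edgeR, without roles, and 2 builds (hg38, mm10) are listed. With the prior removed (0 reads stand at -3.34), 100% of values were whole reads, with departures of at most 5.79e-09 reads, which gave reads and CPM. The authors also deposited a table of log2 fold changes with p-values, whose test was not given in the sources used here.

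Genes at log2 CPM 0 or more in at least 3 libraries (11931) were fitted in limma 3.58.1 (R 4.3.3, 2 groups, variance trend, two-sided), and p-values were adjusted by Benjamini-Hochberg over all of them. The procedure was also run on simulated reads in which few genes changed and the change had no relation to span. Those settings differ from these data, so the run does not test the calls made here. The depth limits low genes most: the 6 genes rest on 84 to 4438 reads per library. Spans and positions are from GENCODE M21 (GRCm38, the same assembly as mm10), with 95.9% of symbols matched. Span correction subtracts a loess curve (span 0.3) of fold change on log10 genomic span from the LP-184 libraries. Genomic span is the full annotated extent of a gene over all its transcripts, which can exceed that of the forms expressed. Alternatives were other scalings, pseudocounts of 1 and 0.1, filters, variance models, voom on recovered reads, a threshold of 0.01, each library left out, a replicate block and span correction.

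The 6 genes and the lists were chosen with earlier results of these data known. Named are the 6 genes, their neighbours (predicted genes left out), in each of the 7 lists around them the 3 called genes with the largest change (all genes of lists of 6 or fewer), and the 2 genes nearest in pattern to each of the 6. Some results are not reported here. Pcna, Hmgb1, the S phase genes called lower and the cell type markers named were added after their values were seen. Summaries used scipy 1.17.1, numpy 2.4.6 and pandas 2.3.3 under Python 3.11.15.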

Additional observations from a re-analysis of the deposited data

How the results depend on the processing

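Over 18 alternatives for each of the 6 mismatch repair genes and 3 neighbours, 156 of 162 values kept their direction and their side of the threshold. The other 6 all concern Pms2, which kept its direction but lost its call: at -0.094 with median centring, -0.11 with quantile normalization, -0.18 both without the variance trend and at an adjusted p under 0.01, and without DMSO replicate 3 or LP-184 replicate 1. Leaving out each library in turn gave Pms2 values of -0.24 to -0.13. The tally of 156 takes no account of size. Span correction took Msh3 from -1.52 to -0.24, Pms1 from -1.94 to -1.01 and Msh6 from 0.53 to 0.23. It left Mlh3 (-0.65) and Exo1 (0.23) nearly as they were. Other filters and variance models, apart from voom, change only the errors and p-values, not the fold change. Under all 18 alternatives 2 of the 6 genes were called higher, and 3 or 4 lower. After span correction, Atm reversed to 0.51, 8 excision and resynthesis factors were called lower, 3 further partners higher and 7 S phase genes higher. Among all genes with a span, 4045 were then called higher. Median centring gave 2 further partners higher, and the fit without the variance trend 1 higher gene among checkpoint kinases and partners. The cause of each change was not tested, except that span correction by its construction lowers the values of short genes and raises those of long genes. The ratios between members kept their direction with log2(CPM + 1) and without each library. They were not recomputed with span correction, after which the fold changes of the genes in each pair lay closer together.

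The replicate numbers did not pair the samples: deviations of same-numbered libraries correlated at -0.018 to -0.0065 across genes. With the replicate number as a block, Msh3 stayed at -1.52, Msh6 at 0.53 and Pms2 at -0.18 (adjusted p = 0.0125), and among the genes named, Chek2 lost its call. Median centring moved the median log2 fold change of all genes to 0.08 and quantile normalization to 0.07. Depth limits Pms1 and Msh3 most, at 84 to 131 reads per LP-184 library.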
